A study of Mus musculus with 12 samples.

Results

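The peaks described here are open chromatin regions that lie in long terminal repeat (LTR) retrotransposons, in brain macrophages of bone marrow (BM) chimeric mice. A peak was a member when the deposited annotation placed its centre in a repeat of the LTR class. The table of untreated mice held 2896 such peaks of 60288 (4.80%) and the table of LPS-treated mice 2728 of 54953 (4.96%). Chromatin was profiled with ATAC-seq, an assay that tags open DNA with a transposase. All mice were C57BL/6J labelled WT, irradiated with 950 cGy and given BM from donors carrying the CD45.1 allele. Graft-derived cells (CD45.1) and host microglia (CD45.2) were sorted from the brain of the same animal, 9 months after transfer per the text on these chimeras, where the labels give either 3.5 or 9 months. The 4 groups were CD45.1 and CD45.2 cells of 3 untreated mice (mice 4 to 6) and of 3 mice killed 12 h after 2.5 mg/kg of the bacterial endotoxin lipopolysaccharide (mice 1 to 3). Host cells were thus irradiated and graft cells came from unirradiated donors. The study describes the donors of these animals as congenic WT mice, and its gate was Ly6C/G- CD11b+ with low CD45. Any allele that came with the CD45.1 donor genome cannot be told apart from the origin of the cells. In sorted bulk cells, fewer cells with an open copy and less opening per cell cannot be told apart either.

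LTR retrotransposons are relics of retroviruses and related elements that copied themselves into the genome through RNA. Each intact element has an internal part between a pair of identical LTRs, and recombination between the LTRs often leaves a single LTR behind. The LTR holds the element's promoter and enhancer sequences, so a solitary copy can act as a regulatory region of the host. In mice they fall into ERV1, ERVK, ERVL and the ERVL-related MaLR elements, and most are kept silent by DNA methylation and by KRAB zinc finger proteins that recruit Trim28 and Setdb1. Myeloid cells read enhancers through PU.1, AP-1, CEBP, RUNX and IRF factors, and short binding sequences of such factors occur in some LTRs.

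A large difference between the populations lay in RLTR44, a small group of ERVK repeats brought together after their values were seen. Of 8 RLTR44 copies the stretch around a shared TGAGGTCA is shown. Each carries these letters and was more than 4-fold higher in host than in graft cells in both tables. The letters were not common to all copies called higher in the host. Copies near Emcn, Nrp2 and Npsr1 were called in both tables with no TGAGGTCA found around the peak centre. Those near Ppp1r2-ps9, Ddx10 and Meis3 had it, were called in both tables and are not shown. In untreated mice graft libraries had 0 tags at the Nek5 and Fam19a1 copies, but 10.9 to 24.6 normalised tags at Map3k4 and 14.9 to 21.9 at 2210417A02Rik. Each line gives the nearest gene, the repeat name, the mm9 coordinates and the strand read. Capitals mark TGAGGTCA, which is one of the sequences covered by TGANNTCA, the AP-1 and CRE type site with 2 bases between its ends.

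Nsun6 RLTR44B chr2:14950785-14950864 (+): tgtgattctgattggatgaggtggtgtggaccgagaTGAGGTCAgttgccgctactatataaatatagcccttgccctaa
Nek5 RLTR44B chr8:23247182-23247261 (+): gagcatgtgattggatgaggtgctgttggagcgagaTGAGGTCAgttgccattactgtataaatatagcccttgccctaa
Fam19a1 RLTR44B chr6:95881319-95881398 (+): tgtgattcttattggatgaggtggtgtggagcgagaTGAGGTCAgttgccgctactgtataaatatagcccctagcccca
Insr RLTR44B chr8:3309742-3309821 (-): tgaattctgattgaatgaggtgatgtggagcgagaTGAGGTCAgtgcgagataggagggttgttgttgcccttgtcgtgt
Map3k4 RLTR44A chr17:12443041-12443120 (+): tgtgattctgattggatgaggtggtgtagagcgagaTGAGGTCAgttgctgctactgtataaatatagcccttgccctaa
Cd46 RLTR44A chr1:196895857-196895936 (+): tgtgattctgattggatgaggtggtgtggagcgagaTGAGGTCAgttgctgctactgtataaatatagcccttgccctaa
Ttc14 RLTR44A chr3:33383194-33383273 (+): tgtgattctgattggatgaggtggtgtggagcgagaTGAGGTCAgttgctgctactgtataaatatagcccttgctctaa
2210417A02Rik RLTR44D chr5:149558379-149558458 (-): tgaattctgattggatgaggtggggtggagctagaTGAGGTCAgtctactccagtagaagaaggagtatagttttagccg

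A TATA-like stretch downstream of the capitals (tataaata) was in 6 of the 8 copies shown. Copies near Tmem261 and Ubxn2b carried almost the same letters and were not called higher in the host. In both of them TGAGGTCA lay outside the peak of untreated mice, 48 bases from its edge at Tmem261 and 106 bases at Ubxn2b. That position did not set them apart from all called copies. After LPS the peaks of the Cd46 and Map3k4 copies also ended before TGAGGTCA, at chr1:196895827 and chr17:12443073. Both of these peaks were called higher in the host. Whether the position of TGAGGTCA matters for a call was not tested.

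Tmem261 RLTR44A chr4:75046937-75047016 (+): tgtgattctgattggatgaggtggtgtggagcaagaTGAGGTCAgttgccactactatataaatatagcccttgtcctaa
Ubxn2b RLTR44B chr4:6154148-6154194 (-): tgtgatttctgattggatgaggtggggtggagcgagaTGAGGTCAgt

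MaLR elements made up most LTR peaks, with 1757 peaks in untreated and 1637 in LPS-treated mice. ERVK held 566 and 561 peaks, ERVL 357 and 334, and ERV1 192 and 174. By name, the MT repeats MTA to MTE gave 714 and 660 peaks and the ORR1 repeats 696 and 634, which was 24.65% and 24.03% of LTR peaks in untreated mice. The single names with most peaks were ORR1E with 293 and 268, MTD with 277 and 250, and ORR1D2 with 146 and 125. Internal parts of the elements accounted for 271 and 268 peaks, of which 87 and 80 were in MaLR names. In untreated mice, 1778 LTR peaks were annotated as intergenic and 1118 as intronic.

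LTR peaks were weaker than the average peak, and also than peaks outside promoters. Their median level in untreated mice was 19.6 normalised tags, against 26.6 for all peaks and 22.1 outside promoters. Their median distance to the nearest gene start was 22950 bp, against 10280 bp and 17760 bp. In untreated mice 20.0% of LTR peaks had been found in all 6 single-library peak lists, against 33.6% of all peaks and 24.4% of those outside promoters. The tags behind them were few, with a median of 11.5 to 25.5 tags per LTR peak and library in untreated and 6 to 18 in LPS-treated mice. The central 32 bases occurred once in the mouse genome in 93.8% of LTR peaks but in only 81.8% of ERVK peaks, so tags of young ERVK copies may have been placed at a near-identical copy elsewhere. Total tags ran from 8392877.5 to 9107770 in untreated and from 2966364 to 6556594.5 in LPS libraries, and the CD45.2 library of mouse 4 had 18.45% of its tags in peaks, against 26.27% to 38.99% in the other 11 libraries. Of 7 promoter peaks of listed microglial markers only that of Sall3, a zinc finger factor, was called, higher in CD45.2 in both tables, and the medians of the list were -0.11 and -0.11 on the log2 scale. Of all 88 tested peaks annotated to the list in untreated mice, graft cells were higher at 2 and host cells at 30. Over all peaks the shares were 3.78% and 2.65%. After LPS the counts were 0 and 12 of 61, against 1.78% and 1.19% of all peaks. Of the graft macrophage markers Apoe, a lipid carrier on a list that the study chose on these animals, had a promoter peak higher in CD45.1 in both tables, and Ms4a7 in untreated mice. The Sall1 and Csf1r promoters held no peak. T cell and B cell markers had no promoter peak, and the only promoter peak of the neuronal markers, that of Map2, was called higher in CD45.1 of untreated mice, with 41.04, 38.3 and 58.8 against 1.64, 1.55 and 1.62 normalised tags. Over all peaks at the neuronal markers, however, 2 of 9 were higher in CD45.1 and 4 in CD45.2, and after LPS 0 and 3 of 7. At the astrocyte markers of untreated mice host cells were higher at 10 of 26 peaks and graft cells at 0, and after LPS at 1 and 0 of 17. Promoter sums for astrocyte markers were 17.4 to 22.4 normalised tags in CD45.1 and 37.9 to 73.0 in CD45.2 of untreated mice, and those for endothelium 12.0 to 38.3 and 48.8 to 65.6, with no promoter peak of either list called, and 0 and 1 of all 13 endothelial peaks. The part of those cells in the LTR differences was not tested.

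In each of the 6 mice ERVK repeats took a larger share of the peak tags of host microglia than of graft cells, a difference that did not pass the adjusted test. In untreated mice ERVK peaks took 0.502%, 0.535% and 0.512% of the peak tags in CD45.1 cells of mice 4, 5 and 6 and 0.589%, 0.601% and 0.607% in CD45.2 cells. In LPS-treated mice the shares were 0.549%, 0.521% and 0.556% in CD45.1 cells of mice 1, 2 and 3 and 0.687%, 0.642% and 0.641% in CD45.2 cells. CD45.2 was higher in 6 of 6 mice, and the groups did not overlap. The mean difference within mice was -0.0986 ± 0.0264 percentage points (SD, n = 6), with p = 0.03125 in a two-sided exact paired permutation test, the smallest that 6 pairs allow, and 0.156 after Benjamini-Hochberg adjustment over 5 shares. For all LTR peaks together the difference was -0.135 ± 0.0895 points with CD45.2 higher in 5 of 6 mice (exact permutation p = 0.0625, adjusted 0.156). MaLR differed by -0.0387 ± 0.0490 points (exact permutation p = 0.0938), ERVL by 0.00744 ± 0.0238 (p = 0.5) and ERV1 by -0.00483 ± 0.0136 (p = 0.406). The RLTR44 names made up a large part of the ERVK difference, and without them, a choice made after seeing the data, CD45.2 remained higher in 6 of 6 mice by 0.0265 to 0.0669 points. As a share of all tags of a library instead of peak tags the ERVK difference was -0.0159 points (exact permutation p = 0.5625), and the libraries differ in the share of their tags that falls in peaks.

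**Figure D1:**
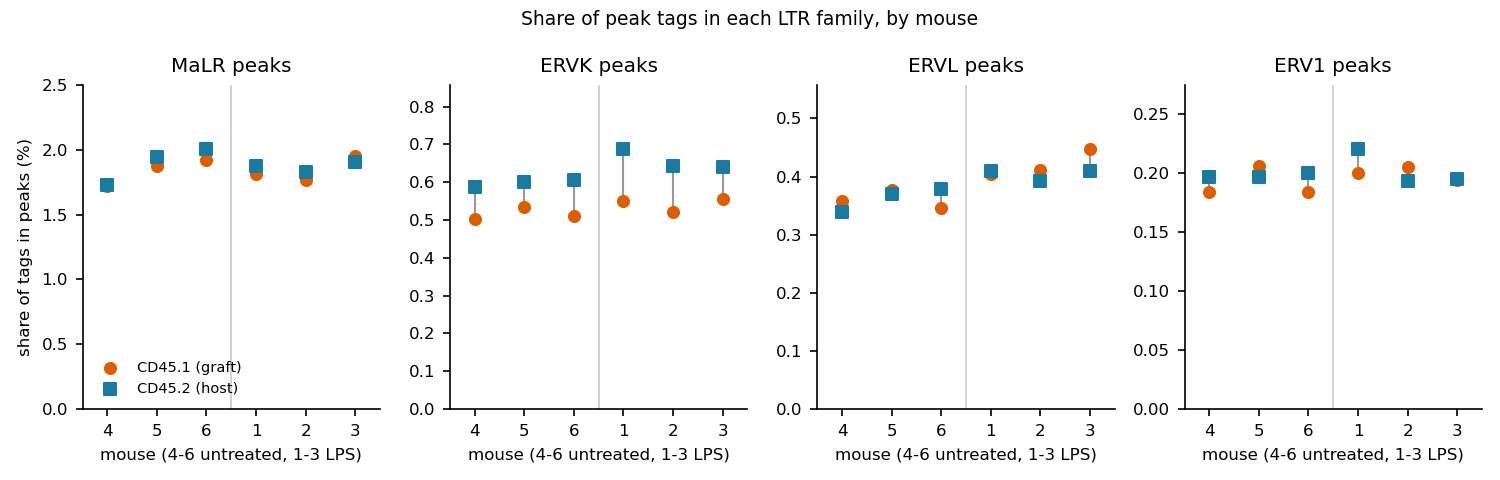
Share of peak tags (%) in ERVK, MaLR, ERVL and ERV1 peaks, with 1 panel per family and the CD45.1 (circles) and CD45.2 (squares) libraries of each mouse joined by a line. In the ERVK panel the host square lies above the graft circle in all 6 mice, from 0.589% to 0.687% against 0.502% to 0.556%.

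Single LTR peaks differed in both directions. A peak was called when DESeq2, fitted over all peaks of a table with Benjamini-Hochberg adjustment, gave an adjusted p under 0.01 and a change of more than 4-fold. In untreated mice 121 of 2861 tested LTR peaks were higher in CD45.1 (4.23%) and 134 in CD45.2 (4.68%), against 3.78% and 2.65% of all peaks. In LPS-treated mice 42 of 2380 were higher in CD45.1 (1.76%) and 67 in CD45.2 (2.82%), against 1.78% and 1.19% of all peaks. The share higher in CD45.1 was thus near that of all peaks in both tables, and the share higher in CD45.2 was above it. Promoter peaks are rarely called, and among all peaks outside promoters 4.64% and 3.18% were called in untreated and 2.21% and 1.41% in LPS-treated mice. With the mouse as a block the 67 calls became 38, all of them among the 67. Leaving out 1 library at a time gave 66 to 107 and 76 to 110 calls in untreated mice. The count fell most without CD45.2 of mouse 5 (66 and 76), and the host count also without either library of mouse 6 (84 for CD45.2, 87 for CD45.1). After LPS the range was 16 to 31 and 34 to 39, with 16 graft calls without CD45.2 of mouse 2, 22 and 24 when the CD45.1 library of mouse 3 or 2 was left out, and 25 for the CD45.2 library of mouse 3, whereas any omission brought the host count to 39 or fewer.

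ERVK had the highest share of peaks called higher in CD45.2 among the 4 families. Of 562 tested ERVK peaks in untreated mice 32 were higher in CD45.1 (5.69%) and 52 in CD45.2 (9.25%), and after LPS 11 (2.29%) and 37 (7.71%) of 480. The median log2 difference over ERVK (CD45.1 over CD45.2) was -0.25 and -0.18, beside 0.00084 and -0.0077 over all peaks. MaLR peaks were called 70 and 65 times in untreated and 22 and 24 times in LPS-treated mice, for CD45.1 and CD45.2 in that order. The 65 and 24 host calls were 3.75% and 1.67% of MaLR peaks, also above the shares of all peaks and of peaks outside promoters. ERVL peaks were called 14 and 12 (3.40%) and then 7 and 3 (1.00%) times, and ERV1 peaks 4 and 4 (2.14%) and then 2 and 3 (2.08%) times. Without the RLTR44 names 31 of 528 (5.87%) and 19 of 452 (4.204%) ERVK peaks were higher in CD45.2, still above the shares of all peaks. A host share above that of all peaks was not particular to LTR peaks. Of LINE peaks 70 (4.47%) were higher in CD45.2 of untreated mice and 35 (2.74%) after LPS, about the shares of LTR peaks, beside 180 (11.5%) and 56 (4.38%) higher in CD45.1. Of SINE peaks 33 (2.13%) and 4 (0.360%) were higher in CD45.2. Peaks in intracisternal A particles (IAP), among the youngest ERVK elements of mice, were called 0 times in CD45.1 and 8 times in CD45.2 of 40 in untreated mice, and 0 and 2 times of 34 after LPS. Of these 8 peaks 7 had a central sequence found once in the genome, and of the 2 none had.

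**Figure D2:**
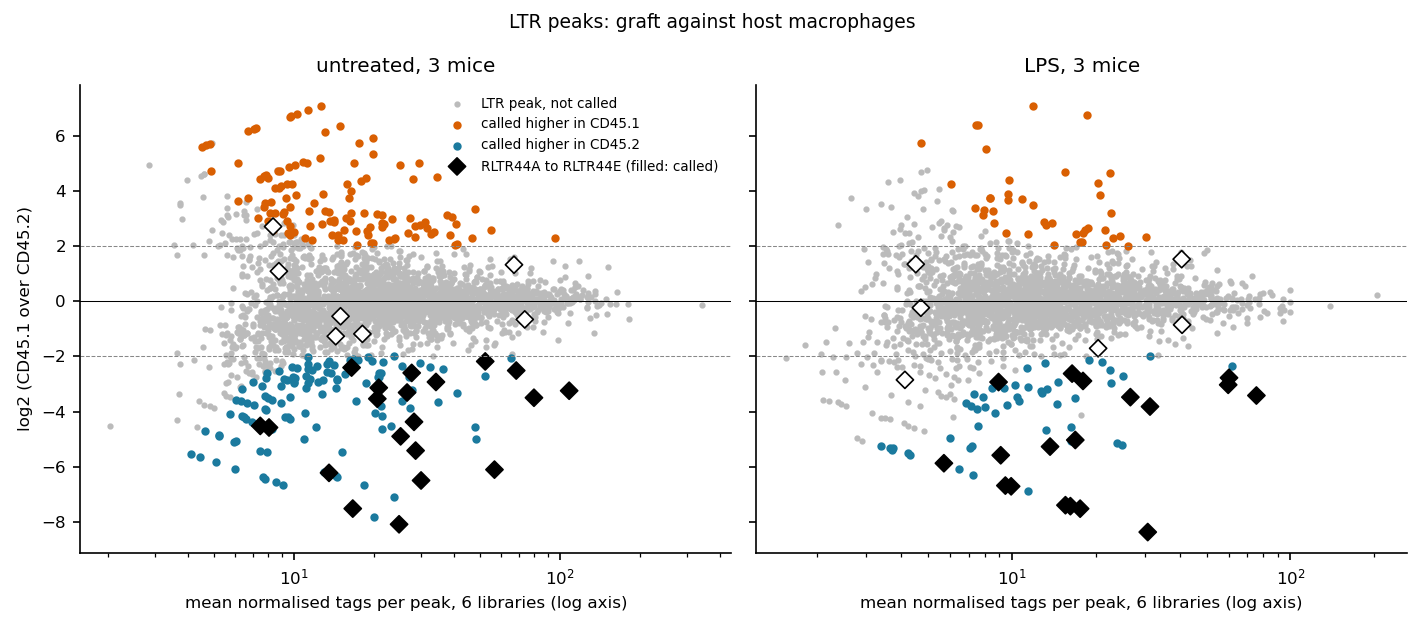
Each point is an LTR peak, with its mean normalised tags over 6 libraries (log axis) against its log2 difference (CD45.1 over CD45.2), in untreated (left) and LPS-treated mice (right), coloured where called. RLTR44A to RLTR44E peaks (diamonds, filled where called) sit mostly below the lower 4-fold line, with medians of -3.25 and -3.45.

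RLTR44A to RLTR44E, grouped after seeing the values and so described without a test, gave 27 peaks at 24 loci in untreated mice and 24 peaks at 23 loci after LPS. Of the 27 peaks 20 were called higher in CD45.2 and none in CD45.1, and of the 24 peaks 18 and none. Their summed tags, normalised for depth, were 318.1, 419.9 and 228.7 in CD45.1 of mice 4, 5 and 6 and 1765, 1349 and 1321 in CD45.2. After LPS they were 182.7, 189.2 and 142.5 in CD45.1 and 1268, 876.6 and 684 in CD45.2. Every host library was above every graft library in both tables. Since the group was formed from these same values, that separation is no independent support. The internal part, RLTR44-int, did not share this, with 1 of 7 and 0 of 4 peaks called. Leaving out any 1 library left 16 to 19 of the 27 and 13 to 15 of the 24 peaks called. Among peaks with a central sequence found once in the genome, 14 of 20 and 9 of 13 were called.

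The copies ranged from those with no tags in graft cells to those with many tags in both populations. Near Nek5, a kinase gene, the RLTR44B copy had 0 tags in all 3 graft libraries of untreated mice and 65.5, 37.1 and 46.3 normalised tags in the host libraries, which is at least 47.7-fold higher. In an intron of Nsun6, an RNA methyltransferase gene, the copy had 0.933, 3.65 and 0 tags in CD45.1 and 124.5, 109.1 and 102.2 in CD45.2, a log2 difference of -6.11 ± 0.684 (SE; DESeq2 adjusted p = 4.18e-16). After LPS it had 0 tags in all graft libraries and 71.8, 61.0 and 51.7 in the host, at least 59.4-fold higher. In an intron of Map3k4, a kinase of stress signalling, the RLTR44A copy had 24.2, 24.6 and 10.9 tags in CD45.1 and 147.5, 96.8 and 107.1 in CD45.2 (log2 difference -2.51 ± 0.294, DESeq2 adjusted p = 8.73e-15). Graft cells were thus low but not at 0 there. At Ubxn2b both populations were open, with 60.6, 69.4 and 40.3 against 96.7, 92.9 and 82.8 tags. At Tmem261 the order was turned, with 97.01, 131.4 and 56.6 tags in CD45.1 and 52.4, 34.1 and 31.6 in CD45.2. That log2 difference of 1.32 ± 0.298 (DESeq2 adjusted p = 2.05e-4) stayed under 4-fold.

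Near Hapln1, a gene for a linker of hyaluronan and proteoglycans, 3 neighbouring peaks of untreated mice lay in RLTR44B. The strongest, at chr13:89524435-89524596, had 18.7, 31.0 and 10.9 tags in CD45.1 and 236.0, 165.6 and 188.3 in CD45.2, a log2 difference of -3.24 ± 0.268 (DESeq2 adjusted p = 1.11e-29). This was the smallest adjusted p of any LTR peak in untreated mice. The second, at chr13:89523447-89523563, had 16.8, 14.6 and 6.53 against 173.7, 134.7 and 133.1 tags (log2 difference -3.50 ± 0.306, adjusted p = 2.02e-26). The pair of sequences is shown since only one of them holds the TGANNTCA site, read here on the opposite strand as TGACCTCA in capitals.

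Hapln1 RLTR44B chr13:89523447-89523563 (+): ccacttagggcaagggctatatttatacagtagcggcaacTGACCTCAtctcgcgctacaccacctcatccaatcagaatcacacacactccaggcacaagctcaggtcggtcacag
Hapln1 RLTR44B chr13:89524435-89524596 (+): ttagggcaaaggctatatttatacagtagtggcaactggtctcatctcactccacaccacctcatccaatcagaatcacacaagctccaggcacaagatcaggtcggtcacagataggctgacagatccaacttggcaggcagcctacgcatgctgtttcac

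TGANNTCA occurred within the 200 bases around the centre of 19 of the 27 RLTR44 peaks (70.4%), against 8.94% of all peaks, and of 17 of the 24 after LPS (70.8%), against 9.65%. The full TGAGGTCA was within these 200 bases in 15 of the 27, of which 14 were called, and 6 of the 12 without it there were called. Those without it there include the Tmem261 and Ubxn2b copies, which carry it outside these bases. After LPS 11 of 13 with it and 7 of 11 without it there were called. The latter include the Cd46 and Map3k4 copies, which also carry it outside these bases. The split is thus not one of copies with and without the letters. The copies are related, and aligned to the Nsun6 copy the other 26 had a median identity of 91.2% (81.5% to 95.4%), over aligned stretches of 17 to 191 bases. The copies therefore share many words, and the 9 bases CCTCATCCA, which are no part of a searched motif, were in 21 of the 27 and in 0.269% of all peaks.

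**Figure D3:**
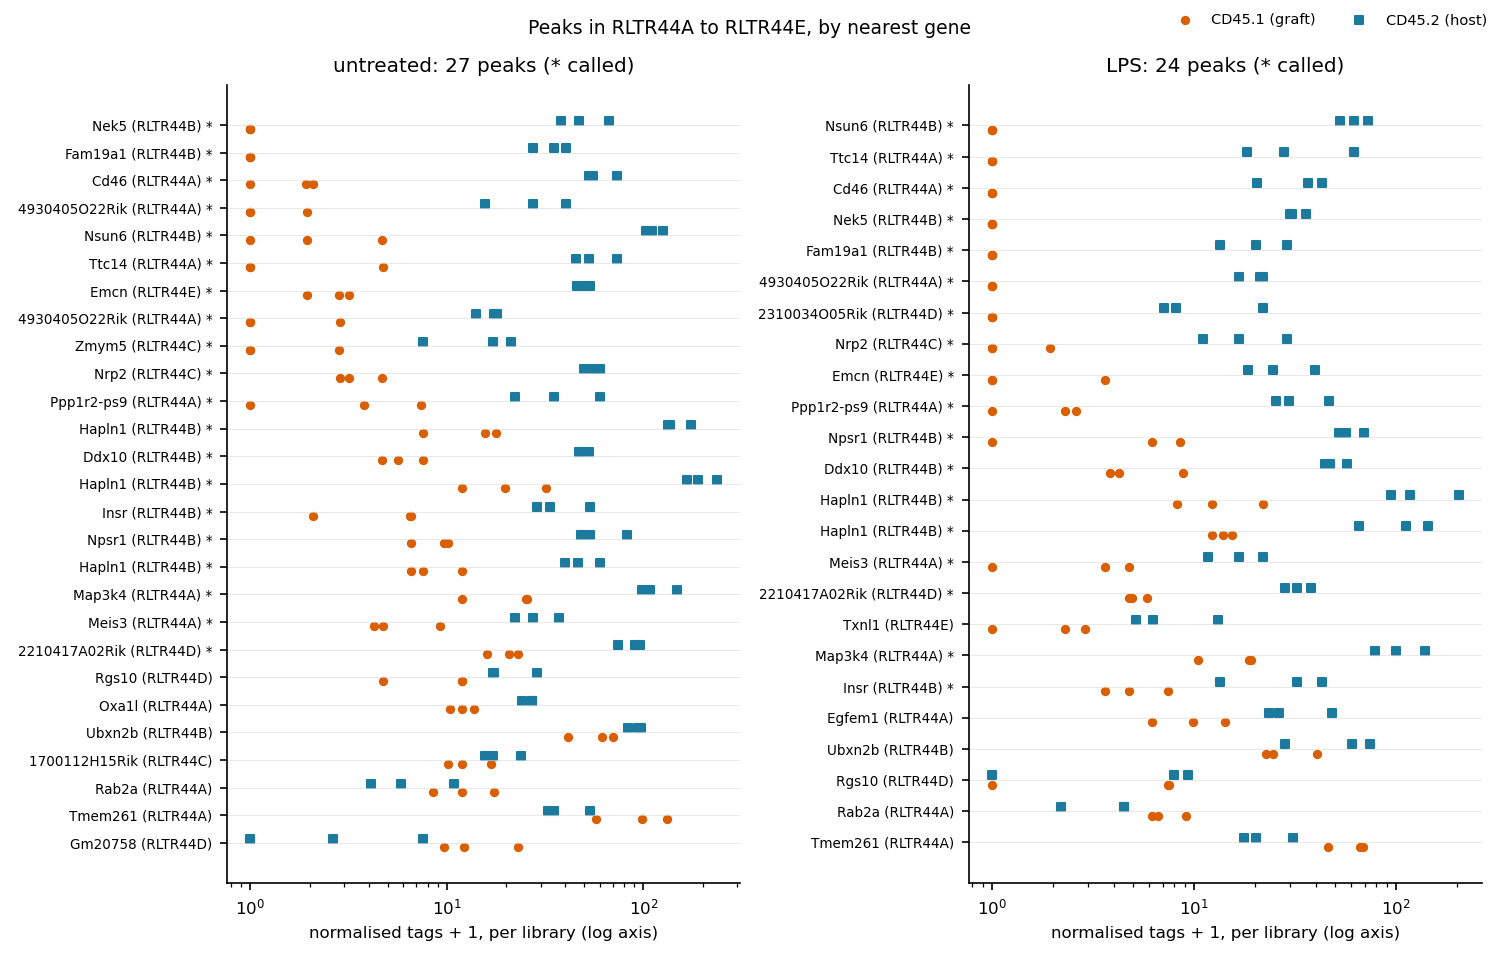
Normalised tags + 1 (log axis) in each library for every RLTR44A to RLTR44E peak, named by its nearest gene, in untreated (left) and LPS-treated mice (right), with CD45.1 as circles, CD45.2 as squares and a star where called. Stars mark 20 of 27 and 18 of 24 peaks, all higher in the host, against 2.65% and 1.19% of all peaks called higher in the host. The group was formed after its values were seen. In 2 peaks of each table all 3 graft libraries lie above all 3 host libraries.

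Summing all tags of a repeat name brought in peaks too weak to be called alone. Of the names of all repeat classes with at least 3 peaks, DESeq2 called 19.7% higher in CD45.1 and 8.83% higher in CD45.2 in untreated mice, and 10.5% and 4.97% after LPS (adjusted p under 0.05). Among 176 LTR names 22 were higher in CD45.1 (12.5%) and 19 in CD45.2 (10.8%) in untreated mice, and among 168 after LPS 11 (6.55%) and 11 (6.55%). The graft shares were thus below those of all classes and the host shares above them. With the mouse as a block these became 13 and 11 and then 5 and 5, and scaling to total tags left 2 and 3 in untreated mice. Leaving out 1 library gave 14 to 20 and 10 to 17 names in untreated mice, with 14 and 12 without CD45.2 of mouse 5, 10 host names without CD45.2 of mouse 6 and 12 without CD45.1 of mouse 4. After LPS it gave 3 to 8 and 5 to 7, with 3 graft names when the CD45.2 library of mouse 2 was left out and 8 for that of mouse 1.

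RLTR44B had the smallest adjusted p in both tables. Its sum was 118.5, 147.9 and 80.6 in CD45.1 and 975.0, 736.9 and 758.8 in the CD45.2 libraries of untreated mice (log2 difference -2.83 ± 0.271, DESeq2 adjusted p = 5.38e-23). After LPS it was 69.5, 74.4 and 58.5 against 721.6, 527.7 and 388.9 (-3.01 ± 0.296, adjusted p = 4.53e-22). RLTR44C in untreated mice (-2.50 ± 0.351), RLTR44A after LPS (-1.65 ± 0.219) and RLTR44D after LPS (-2.48 ± 0.460) followed, and without its strongest peak RLTR44D was at -1.90 with an adjusted p of 0.0922.

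RMER19B, an ERVK repeat with many more peaks, had a smaller difference in its sum. Its 58 peaks of untreated mice summed to 1297, 1406 and 1275 tags in CD45.1 and 1965, 1785 and 1830 in CD45.2 (log2 difference -0.48 ± 0.0742, DESeq2 adjusted p = 2.08e-9). Its 64 peaks after LPS summed to 840.9, 857.1 and 883.2 against 1319, 1330 and 1372 (-0.64 ± 0.0901, adjusted p = 7.98e-11). The groups did not overlap in either table. Of its tested peaks 8 of 56 and 6 of 55 were called higher in CD45.2 and none in CD45.1, and the others did not pass the test. The copy nearest AY512915, at chr6:95402304-95402420, had 1.87, 5.48 and 4.36 tags in CD45.1 and 118.0, 83.6 and 74.7 in the CD45.2 libraries of untreated mice (log2 difference -4.54 ± 0.489, adjusted p = 2.19e-17). Scaled to total tags the RMER19B sums were at -0.47 and -0.49, with adjusted p of 0.9999 and 0.0945.

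RLTR19, MLT2F and MLT1A1 went the other way. RLTR19, with 3 peaks in untreated mice, summed to 42.0, 46.6 and 87.1 tags in CD45.1 and 1.64, 0 and 4.87 in CD45.2 (log2 difference 4.71 ± 0.702, DESeq2 adjusted p = 7.70e-10). Without its strongest peak, near Pcnx4, it was at 4.10 with an adjusted p of 0.0653. MLT2F, an ERVL repeat with 4 peaks, summed to 67.2, 72.1 and 96.9 against 19.7, 11.6 and 22.7 (2.14 ± 0.370, adjusted p = 1.53e-7). MLT1A1, a MaLR repeat, was higher in CD45.1 in both tables by 0.75 ± 0.136 and 0.78 ± 0.147. The names with most peaks did not pass the test, with ORR1E at -0.08 ± 0.0631 and -0.06 ± 0.0777, MTD at -0.07 ± 0.0638 and -0.04 ± 0.0759, ORR1D2 at 0.10 ± 0.0781 and 0.06 ± 0.0963, MTC at -0.09 ± 0.0897 and -0.04 ± 0.118, and MTEa at -0.12 ± 0.0719 and -0.09 ± 0.0915. ORR1B1, with 2 peaks higher in CD45.1 and 3 in CD45.2 after LPS, was at 0.01 ± 0.112.

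The leading peaks higher in graft cells lay in MaLR repeats for the most part, as did LTR peaks in general (1757 of 2896 in untreated mice). In an intron of Laptm4a, a lysosomal membrane protein gene, an MTD peak had 142.7, 167.9 and 165.5 tags in CD45.1 and 39.3, 30.2 and 30.0 in the CD45.2 libraries of untreated mice (log2 difference 2.30 ± 0.228, DESeq2 adjusted p = 2.01e-20). An MTD peak near Lpcat4, a phospholipid acyltransferase gene, had 57.8, 74.8 and 128.5 against 8.19, 5.42 and 12.2 tags (3.33 ± 0.409, adjusted p = 2.00e-13). No host library reached a graft library at either peak. The ORR1E peak near Ubl3 was at 2.57 ± 0.309, the MTE-int peak in an intron of Nrbf2, an autophagy gene, at 4.51 ± 0.560, and the RLTR40 peak near B4galt6, a glycolipid enzyme gene, at 3.11 ± 0.401. The MTD pair is shown as MTD copies that were called in the same direction, with no capitals since no searched motif was in the peak.

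Laptm4a MTD chr12:8934552-8934745 (+): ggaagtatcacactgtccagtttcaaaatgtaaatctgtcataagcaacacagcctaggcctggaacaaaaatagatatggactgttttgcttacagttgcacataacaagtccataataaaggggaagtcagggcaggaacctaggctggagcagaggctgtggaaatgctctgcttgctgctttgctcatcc
Lpcat4 MTD chr2:112072929-112073080 (+): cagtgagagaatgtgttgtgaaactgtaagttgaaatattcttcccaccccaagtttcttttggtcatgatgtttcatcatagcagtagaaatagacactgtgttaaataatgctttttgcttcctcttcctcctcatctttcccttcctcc

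Outside RLTR44 and RMER19B, the leading host peak of untreated mice was an MLT1A0 copy in an intron of Opcml, a neural cell adhesion gene, with 0.933, 3.65 and 4.36 tags in CD45.1 and 101.6, 82.1 and 98.2 in CD45.2 (log2 difference -4.999 ± 0.537, DESeq2 adjusted p = 1.87e-17). After LPS the MTA_Mm copy near Htr1f, a serotonin receptor gene, had 33.96, 49.6 and 47.2 tags in CD45.1 and 1.75, 0 and 2.97 in CD45.2 (4.65 ± 0.699, adjusted p = 2.02e-8), although its central sequence occurred 15 times in the genome. The other leading graft peaks after LPS were ORR1C1 near Zcchc6 (3.83 ± 0.604), RMER15 near 1700016C15Rik (4.29 ± 0.688), MTD near Gm9733 (3.19 ± 0.523) and ORR1D2 in an intron of Irak4 (2.33 ± 0.408), a kinase of Toll-like receptor signalling with 51.8, 41.8 and 58.5 against 7.01, 15.7 and 7.12 tags. The leading host peaks after LPS were RLTR44 copies near Hapln1 (-3.03 ± 0.363), Map3k4 (-2.78 ± 0.339), Nsun6 and Ddx10 (-3.48 ± 0.513), with 1 exception. That exception was MMERGLN-int near Gm3376 on the Y chromosome (-2.36 ± 0.353, adjusted p = 1.78e-8), a sequence present 12 times in the genome, whose call was lost with the mouse as a block (adjusted p = 0.0139) and without CD45.1 of mouse 3 (adjusted p = 0.0129) or CD45.2 of mouse 1 (-1.997, under 4-fold). The MTA_Mm copy near Htr1f is shown beside another MTA_Mm copy, near Olfr111, that was higher in the host by -2.95 on the log2 scale. Capitals mark a CEBP-type TTGCNNAA match, read on either strand, in the first and an AP-1 TGANTCA match in the second.

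Htr1f MTA_Mm chr16:65197198-65197469 (+): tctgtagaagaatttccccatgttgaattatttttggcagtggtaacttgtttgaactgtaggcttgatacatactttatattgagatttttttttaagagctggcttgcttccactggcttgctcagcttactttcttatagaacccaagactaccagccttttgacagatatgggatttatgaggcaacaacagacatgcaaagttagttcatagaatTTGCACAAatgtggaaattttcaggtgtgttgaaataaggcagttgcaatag
Olfr111 MTA_Mm chr17:37675385-37675583 (+): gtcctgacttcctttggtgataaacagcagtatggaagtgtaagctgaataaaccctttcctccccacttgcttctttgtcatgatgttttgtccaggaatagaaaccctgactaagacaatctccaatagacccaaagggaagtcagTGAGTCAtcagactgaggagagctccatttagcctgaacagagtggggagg

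The strongest LTR peaks of each family were open in both populations, and none of them was called. The ORR1D2 peak near Dnajc3, a chaperone gene of the endoplasmic reticulum, had 324.6, 335.9 and 309.3 tags in CD45.1 of untreated mice. In their CD45.2 libraries it had 452.3, 271.7 and 353.8 (log2 difference -0.13 ± 0.152). After LPS it had 178.7, 240.1 and 239.7 against 238.2, 176.2 and 157.9 (0.22 ± 0.196), so the groups overlapped in both tables. In untreated mice RLTR45 near Acot10 for ERVK was at 0.34 ± 0.165, LTR50 near Kif16b for ERVL at -0.50 ± 0.190 and MER57D near Trim33 for ERV1 at 0.35 ± 0.186. After LPS RLTR20B1 near Car6 was at -0.42 ± 0.238, RMER15-int near Fam50b at 0.21 ± 0.245 and MER89-int near Tpd52 at -0.03 ± 0.250.

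The letters of the PU.1 site, GAGGAAGT, were in 23.4% of LTR peaks of untreated mice, within the 200 bases around the centre on either strand, against 9.46% of all peaks and 11.2% of peaks outside promoters. After LPS it was in 20.4% against 8.73%. The letters were in 73 of 146 ORR1D2 peaks (50.0%) and 130 of 293 ORR1E peaks (44.4%), out of 677 LTR peaks with them, whereas 7.58% of MTD and 12.9% of ERVK peaks had them. The 2 strongest ORR1E and ORR1D2 copies among those with the letters are shown around the match, which is in capitals. At Dnajc3 the match ends just before the peak of untreated mice, which starts at chr14:119406726.

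Rack1 ORR1E chr11:48601399-48601468 (+): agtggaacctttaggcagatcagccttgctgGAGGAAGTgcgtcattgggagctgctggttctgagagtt
Sspn ORR1E chr6:146119492-146119561 (-): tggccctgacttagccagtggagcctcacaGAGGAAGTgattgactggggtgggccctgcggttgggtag
Dnajc3 ORR1D2 chr14:119406686-119406755 (+): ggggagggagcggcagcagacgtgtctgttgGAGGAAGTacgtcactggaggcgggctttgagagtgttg
Timm8a2 ORR1D2 chr14:122408965-122409034 (-): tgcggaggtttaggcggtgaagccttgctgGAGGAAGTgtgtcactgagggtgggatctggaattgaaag

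These 4 peaks did not differ by more than 0.30 on the log2 scale between the populations, and PU.1 letters were about as common in LTR peaks called higher in CD45.1 (22.3%) as in those called higher in CD45.2 (18.7%). The shares of motifs are given as a description, and their differences were not tested. The AP-1 letters TGANTCA were in 19.01% of LTR peaks called higher in CD45.1 and in 13.4% of those called higher in CD45.2 of untreated mice, against 9.12% of all LTR peaks. After LPS the shares were 31.0% and 17.9%, against 15.7%, so that both sets of called peaks had the letters more often than all LTR peaks. RUNX letters (TGTGGTT) were in 14.05% of the LTR peaks higher in CD45.1 and in 1.49% of those higher in CD45.2, and after LPS in 14.3% and 1.49%. CEBP letters (TTGCNNAA) were in 17.4% and 6.72%, but after LPS in 19.05% and 13.4%, or 18.4% of the latter without the RLTR44 names. All peaks called higher in CD45.1, LTR or not, had TGANTCA in 17.6% before and 32.7% after LPS. Among all peaks called in untreated mice, RUNX letters were in 11.8% of those higher in CD45.1 and 3.70% in CD45.2. CEBP letters were in 21.6% and 8.62% of them, so neither split was particular to LTR peaks. Among all LTR peaks of untreated mice 7.36% had RUNX and 10.8% CEBP letters. TGANNTCA was in 23.1% of LTR peaks higher in CD45.2, and in 13.3% without the RLTR44 names. RMER19B peaks stood out by the E-box CACGTG, which 34.5% of them held against 5.65% of all peaks. Also searched were IRF (GAAANNGAAA), in 3.90% of LTR and 3.86% of all peaks, MEF2 (CTANNNNTAG), in 4.14% and 3.07%, NF-kappaB (GGGANTTTCC), in 0.380% and 0.418%, and CTCF (CCANNAGNNGGC), in 4.14% and 8.48%.

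**Figure D4:**
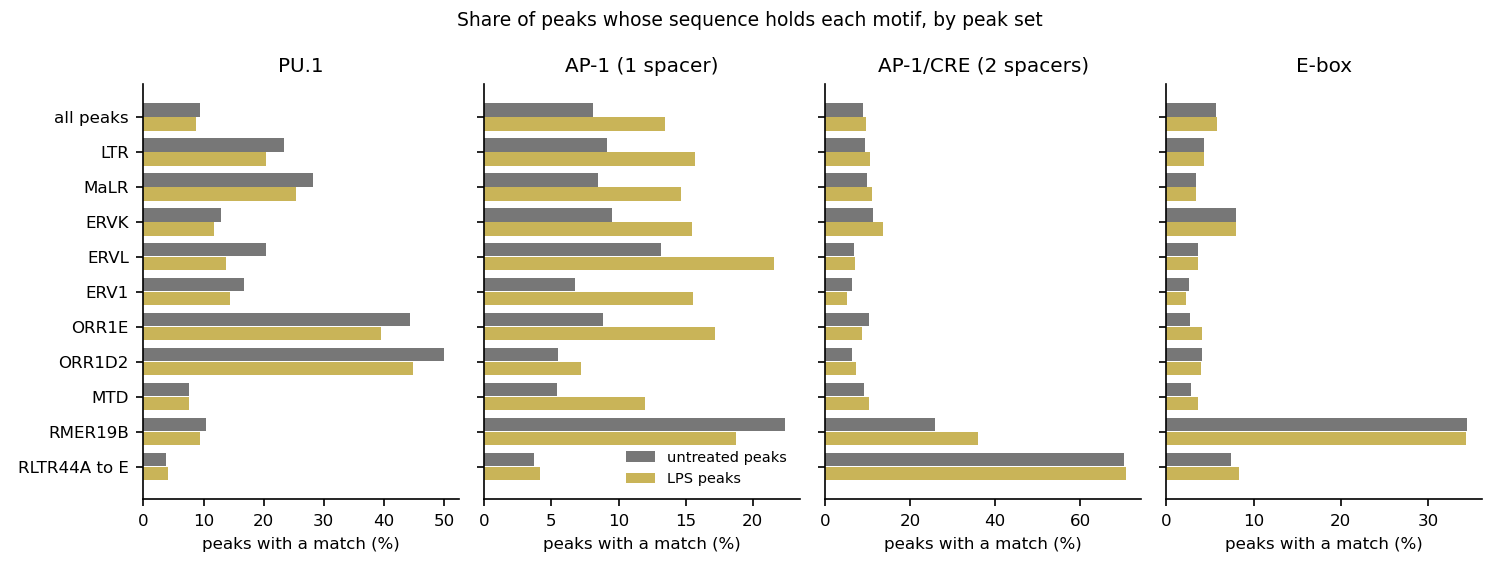
Bars give the share of peaks (%) with PU.1, AP-1, AP-1/CRE and E-box letters in the 200 bases around the centre, by set of peaks, in the untreated (grey) and LPS (yellow) tables. PU.1 letters stand out in ORR1D2 (50.0% and 44.8%) and ORR1E (44.4% and 39.6%), TGANNTCA in RLTR44 (70.4% and 70.8%) and CACGTG in RMER19B (34.5% and 34.4%).

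Few promoters beside called LTR peaks were called themselves, and those that were went the same way. The 121 LTR peaks higher in CD45.1 of untreated mice had 115 nearest genes with 87 promoter peaks, of which 11 were called higher in CD45.1 and none in CD45.2, against 0.796% and 0.811% of all promoter peaks. They belonged to Clec12a and Cd93, myeloid surface receptors, to Runx3, a transcription factor, and to Adam19, Serpinb8, Dach1, Sash1 and Sirpb1b. The 134 LTR peaks higher in CD45.2 had 117 nearest genes with 69 promoter peaks, 10 of them called higher in CD45.2 and none in CD45.1. These were Sall3, with an ORR1E peak 190037 bp from its start, and Nova1, Magi1, Khdrbs3, Csmd3, Celf4, Nbea, Lypd6 and Hspb3. After LPS 3 of 34 promoter peaks were higher in CD45.1 and 6 of 36 in CD45.2, against 0.426% and 0.493% of all promoter peaks. For the RLTR44 copies called higher in the host, 0 of 12 promoter peaks and, after LPS, 0 of 11 were called. The same libraries gave both values, so promoter and LTR calls are not independent.

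Genes that silence LTR elements showed no called promoter difference, but few promoter peaks of any gene were called. Of all promoter peaks in untreated mice, 0.796% were higher in graft and 0.811% in host cells, and 0.426% and 0.493% after LPS. For 25 of 29 listed genes, among them Trim28, Setdb1, Dnmt1 and Uhrf1, 34 promoter peaks were tested in each table and none was called by DESeq2, with log2 differences from -1.01 to 0.92 in untreated mice and 2 and 1 peaks at an unadjusted p under 0.05. Genes of nucleic acid sensing and retroelement restriction, among them Ifih1, Trex1 and Samhd1, gave 23 promoter peaks in each table, none called by DESeq2 and 2 and 1 at an unadjusted p under 0.05. No call among 34 or 23 promoter peaks is thus near the background. Over every tested peak of the silencing genes, graft cells were higher at 4 and host cells at 2 of 110 before LPS. After LPS these counts were 1 and 1 of 89. For the sensing and restriction genes they were 1 and 2 of 101, then 1 and 0 of 75. A closed or open promoter says nothing of the amount of the protein.

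To follow LTR peaks from untreated to LPS-treated mice, peaks of the 2 tables were matched where they overlapped by at least 50% of each other's length. Both tables annotated 1674 matched peaks as LTR, 1666 of them with the same name, and 1145 untreated and 959 LPS peaks had no partner. Peaks were called, merged and counted separately for each treatment, so treatment and table cannot be told apart, and the counts are read against those of all matched peaks. Within CD45.1 154 of 1668 tested LTR peaks were higher after LPS (9.23%) and 109 lower (6.54%), against 6.78% and 4.93% of all matched peaks (DESeq2 adjusted p under 0.05, more than 2-fold). Within CD45.2 177 were higher (10.6%) and 102 lower (6.12%), against 7.69% and 3.69%. In both populations 99 were higher and 53 lower, and none went opposite ways. With size factors from total tags there were 96 higher and 43 lower peaks in CD45.1 and 102 and 58 in CD45.2. An overlap of at least 80%, which leaves fewer matched peaks, gave 36, 35, 44 and 21. Leaving out 1 library gave 109 to 182, 49 to 110, 128 to 183 and 51 to 104 peaks, in the order just given. Lower peaks in CD45.1 numbered 49, 61 and 63 when the CD45.1 library of mouse 3, 5 or 2 was left out, and those in CD45.2 numbered 51, 51, 55 and 61 when that of mouse 3, 6, 5 or 2 was.

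ERVL peaks had the highest share after LPS, with 31 of 217 higher in CD45.1 (14.3%) and 30 in CD45.2 (13.8%), and ERVK the lowest in CD45.1 with 18 of 317 (5.68%). An MLT1F2 peak near Atg4c, an autophagy protease gene, rose in both populations, from 53.5, 53.9 and 60.2 to 154.7, 213.8 and 207.0 tags in CD45.1 and from 71.8, 67.5 and 58.8 to 244.7, 209.7 and 189.0 in CD45.2 (log2 1.77 ± 0.184 and 1.69 ± 0.180, DESeq2 adjusted p = 7.40e-19 and 4.07e-18). An ORR1C2 peak near Rreb1, a zinc finger factor gene, rose by 2.92 ± 0.317 and 1.41 ± 0.264, and an ORR1E peak near Tbcc by 2.15 ± 0.249 and 2.11 ± 0.237. Near Ctsh, a lysosomal protease gene, an MLT1E2 peak rose by 0.98 ± 0.227 and 2.42 ± 0.262, the first under 2-fold. Among the falling peaks RLTR4_Mm near 0610039K10Rik went from 74.7, 82.0 and 88.9 to 35.2, 31.1 and 19.6 tags in CD45.1 (-1.51 ± 0.272, DESeq2 adjusted p = 1.62e-6). In CD45.2 it changed by -1.43 ± 0.270. MTD near 1700019O17Rik and MTE2a in an intron of Ngef changed by -1.91 and -2.45 on the log2 scale in CD45.1. MTE2b near Pofut2, MLT1L near Ube2h and ORR1B1-int near Osbpl8 changed by -2.01, -1.32 and -1.997 in CD45.2. AP-1 letters (TGANTCA) were in 31.2% of LTR peaks higher after LPS in CD45.1 and 29.4% in CD45.2, in 5.505% and 0.98% of those lower and in 9.25% and 9.43% of those not called. Of 19 matched RLTR44 peaks those near Npsr1 (1.07) and Ddx10 (1.09) were called higher after LPS in CD45.2, against 7.69% of all matched peaks. None was called in CD45.1, against 6.78% of all matched peaks. Several of these copies had almost no tags in graft cells, with SE of 1.36 at Nsun6 and 1.69 at Nek5. A change in CD45.1 could hardly be called there.

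The response to LPS differed between the populations at 5 of the 1668 LTR peaks, all with a larger rise in the host. The interaction term of DESeq2 was called negative at these 5 (0.2998%) and positive at 0, with 87 at an unadjusted p under 0.05, and edgeR called 1 positive. Among all matched peaks it was negative in 0.227% and positive in 0.0178%, so the share in LTR peaks was near the background. Size factors from total tags left 1 negative call, and an overlap of at least 80% gave 1. In an intron of Ifi207, an interferon-inducible gene of the nucleic acid sensing Ifi200 family, an ORR1E peak had 36.7, 31.8 and 44.4 tags in untreated CD45.1 and 7.62, 3.16 and 9.89 in untreated CD45.2. After LPS it had 68.0, 79.7 and 68.6 in CD45.1 and 80.7, 65.7 and 54.3 in CD45.2, so the populations no longer separated. The interaction was -2.34 ± 0.437 (adjusted p = 1.59e-4). An MLT1D peak near Dppa3 had 124.5, 139.0 and 160.5 against 65.3, 56.9 and 59.3 tags before and 126.6, 151.6 and 92.3 against 161.4, 149.1 and 120.8 after LPS (-1.44 ± 0.274, adjusted p = 2.03e-4). An MLT2F peak near Tlr13, a Toll-like receptor gene for bacterial RNA, had 24.9, 31.8 and 33.0 against 7.62, 4.22 and 5.49 before and 44.5, 36.9 and 22.4 against 45.4, 30.3 and 24.5 after LPS (-2.31 ± 0.538, adjusted p = 0.00870). The peaks near Ctsh (-1.44 ± 0.347, adjusted p = 0.0136) and in an intron of Nrbf2 (-2.73 ± 0.667, adjusted p = 0.0163) had adjusted p of 0.0993 and 0.112 with the mouse as a block, which left 3 of the 5 calls. At all 5 peaks the graft was above the host in untreated mice with no overlap. Leaving out 1 library left 2 to 7 negative calls, with 2 without CD45.2 of mouse 5 and 3 without CD45.1 or CD45.2 of mouse 3 or mouse 6, and Tlr13, Ctsh and Nrbf2 lost theirs without some single libraries.

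**Figure D5:**
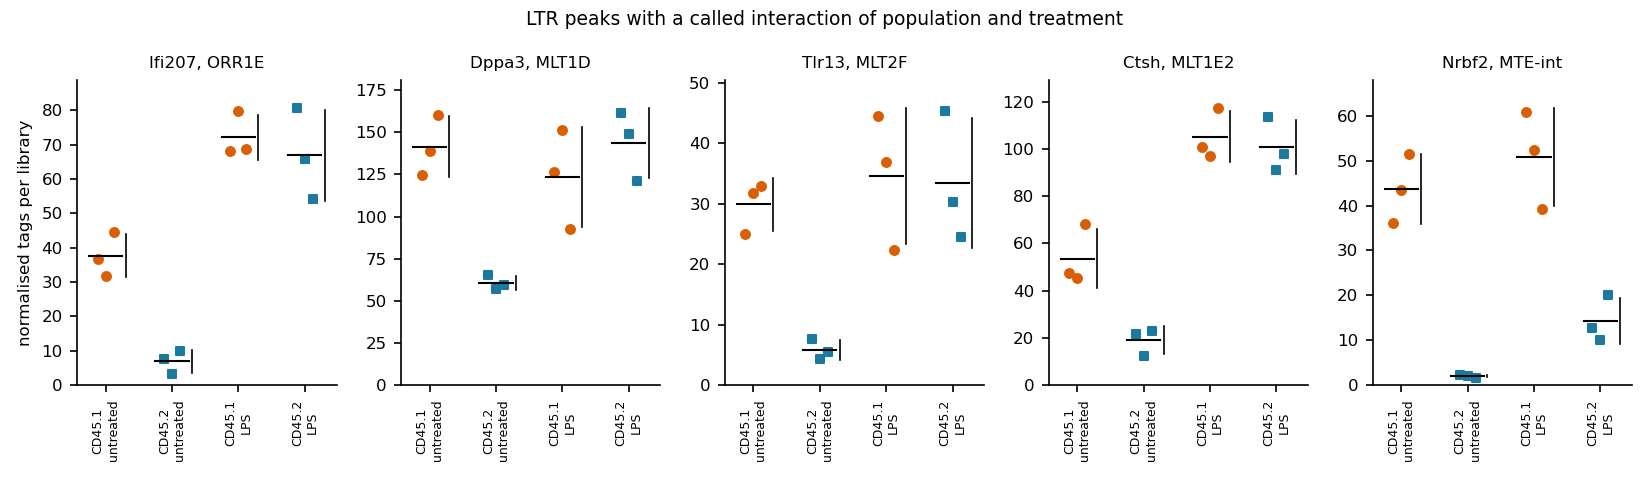
Normalised tags per library (points) and group means with SD (horizontal and vertical lines, 3 mice) in the 4 groups at the 5 LTR peaks with a called interaction, each panel with its own axis from 0. Before LPS every graft library is above every host library in all 5 panels, and after LPS the populations overlap in all panels except that of Nrbf2.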

How the data were processed

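ATAC-seq libraries of CD45.1 and CD45.2 cells from 6 mice gave 12 libraries in 4 groups of 3. The authors aligned reads to mm9 with Bowtie2, removed duplicates with Picard 1.108 and called, merged and annotated peaks with HOMER, separately for untreated and LPS-treated mice, after demultiplexing with bcl2fastq 2.17.1.14. The deposited values are estimated counts of tags per merged peak, in steps of 0.5 since each mate counts 0.5, not normalised. Total tags per library were 2966364 to 9107770, and few tags per LTR peak limit the precision.

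Counts were rounded and each table was fitted over every peak that exceeded 10 counts in 1 library or more, with DESeq2 1.42.0 (R 4.3.3) and Benjamini-Hochberg adjustment. Calls of peaks needed an adjusted p below 0.01 together with a change above 4-fold, limits taken from the study, which does not state whether its p was adjusted, and those of a repeat name with at least 3 peaks needed an adjusted p under 0.05 on its summed counts. Matched peaks (reciprocal overlap of at least 50%) were fitted over 12 libraries with population, treatment and their interaction. Log2 differences are CD45.1 over CD45.2, and a fold against a group with no tags was set against a floor of 3 tags over the group, which covers counting error only. Shares were tested by exact sign flips over 6 mice (numpy 2.4.6). Motifs were matched on both strands in the 200 bases around the peak centre. Sequences were read from the mm9 genome.

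Named were, per table, the 5 called LTR peaks with the smallest adjusted p in each direction, the strongest peak of each of 4 families, the 3 matched peaks with the smallest adjusted p for LPS per population and direction, up to 5 for the interaction, and the repeat names with most peaks, most calls or smallest adjusted p. Single RLTR44 and RMER19B copies and the genes beside called peaks were named after their values were seen. A peak carries the name of the gene with the nearest start, and an intron that holds it can belong to another gene. Members and lists were chosen with earlier results of these data known.

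CD45.1 and CD45.2 cells came from the same animal per the series' design, so the mouse pairs them, and it was used as a block in an alternative. Deviations from the group means correlated within mice by 0.0821, 0.0762 and 0.0897 in untreated and by -0.0640, 0.0591 and 0.149 in LPS-treated mice. Other alternatives were edgeR 4.0.16, other scalings, filters, limits and overlaps, and leaving out each library. The labels call the mice of a group separate animals by number only. On simulated counts with 200 changed peaks the fits recovered 99.0% of them among 57936 peaks in untreated mice, 99.5% among 46840 after LPS and, for the interaction, 96.0% among 39207. The interaction fit also made 13 false calls. Changed peaks were drawn only from those with a mean count of at least 20, with 1 fixed change well above 4-fold and 1 fixed spread. The recovery therefore covers neither weaker peaks nor changes close to 4-fold. The median LTR peak had 19.6 normalised tags in untreated mice and 10.4 after LPS.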

Additional observations from a re-analysis of the deposited data

Results flagged for a closer look

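At 5 LTR peaks the response to LPS differed between CD45.1 and CD45.2 by the interaction test of DESeq2. The interaction was -2.338 at the ORR1E peak of Ifi207, -1.441 at the MLT1D peak near Dppa3, -2.307 at the MLT2F peak near Tlr13, -1.44 at the MLT1E2 peak near Ctsh and -2.726 at the MTE-int peak of Nrbf2, on the log2 scale and negative where the host rose more. With library sizes set by total tags Ifi207 kept its call and the adjusted p of the others were 0.2474 (Dppa3), 0.1331 (Tlr13), 0.795 (Ctsh) and 0.190 (Nrbf2). With the mouse as a block Ctsh and Nrbf2 were at 0.0993 and 0.112. Leaving out single libraries ended the call of Tlr13 for mouse 3 in CD45.1 and for mice 1, 5 and 6 in CD45.2. It ended that of Ctsh for mice 1, 2 and 6 in CD45.1 and mice 3 and 5 in CD45.2, and that of Nrbf2 for mice 3 and 6 in CD45.1 and mice 3, 5 and 6 in CD45.2.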

How the results depend on the processing

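Counts of called LTR peaks are given for CD45.1 and CD45.2, untreated and then LPS. They were 36, 41, 8 and 15 with a mean count of at least 20, and 260, 282, 105 and 110 with limits of 0.05 on the adjusted p and 2-fold. edgeR gave 147, 166, 61 and 93. Without peaks within 20 Mb of Ptprc, the gene of the CD45 alleles, they were 121, 131, 41 and 65, an alternative chosen after seeing the data. Leaving out 1 library gave 66 to 107, 76 to 110, 16 to 31 and 34 to 39 peaks, and 14 to 20, 10 to 17, 3 to 8 and 5 to 7 repeat names. Repeat names called were 2 and 3 in untreated mice and 4 for CD45.2 after LPS with size factors from total tags, and 7 for CD45.1 after LPS without the strongest peak of each name.

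With the mouse as a replicate block, LTR peaks called were 98 and 99 in untreated mice and 29 and 38 after LPS, and with a GC correction beside the block 19 and 39 after LPS. Repeat names were 13, 11, 5 and 5, and negative interactions 3. Among named peaks the block also ended the calls of the RLTR44 copies near Meis3 (adjusted p = 0.0496), Npsr1 (0.0367) and Emcn (0.0379) after LPS, and beside those given in the report it changed no other named call.

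As a share of all tags of a library, the differences were 0.03495 points for all LTR, 0.03307 for MaLR, 0.003963 for ERV1 and -0.01585 for ERVK (exact permutation p of 0.8125, 0.6875, 0.5938 and 0.5625). Within peaks outside promoters all LTR differed by -0.2816 (exact permutation p = 0.03125). Without the RLTR44 names, chosen after seeing the data, all LTR differed by -0.08217 (exact permutation p = 0.09375). Leaving out 1 mouse gave -0.1633 to -0.1158 for all LTR, -0.05626 to -0.03063 for MaLR, -0.1052 to -0.09078 for ERVK, 0.001603 to 0.01537 for ERVL and -0.008293 to -0.001747 for ERV1, and 5 pairs cannot go below an exact permutation p of 0.0625.

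Negative interactions numbered 1 at an overlap of at least 80% and 1 with total tags, 2 to 7 without 1 library, and edgeR gave 1 positive. Peaks higher and lower after LPS were 36 and 35 in CD45.1 and 44 and 21 in CD45.2 at 80% overlap, 96, 43, 102 and 58 with total tags, and 109 to 182, 49 to 110, 128 to 183 and 51 to 104 without 1 library.

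Directions turned only where no call was made. With total tags after LPS, which moved the median of all peaks by 0.143, MTC was at 0.1222, MTD at 0.1229, MTEa at 0.07393, ORR1E at 0.1046 and Tpd52 at 0.1407. With block and GC correction Trim33 was at -0.006072. Without 1 library the ranges were -0.3093 to 0.03768 for Dnajc3, -0.2575 to 0.2166 for Tpd52, -0.195 to 0.06851 for MTC, -0.06677 to 0.1128 for ORR1B1 and -0.01154 to 0.1306 for ORR1D2. Causes were not tested. Few tags per peak limit the LPS table most.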
